A study of Mus musculus with 36 samples.

Results

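Complement is a set of proteins that tag microbes and dying cells for uptake by phagocytes. The C1q complex starts the classical pathway by binding antibody or the target surface, and it is built from equal numbers of 3 chains encoded by C1qa, C1qb and C1qc. All pathways meet at C3, whose fragments coat the target and, together with factor B (Cfb) and properdin (Cfp), drive the amplification loop of the alternative pathway. The small fragments released on the way, C3a and C5a, act on phagocytes through the receptors C3ar1 and C5ar1. Most circulating complement is made by the liver, whereas C1q and properdin are typical products of myeloid cells, and macrophages also make C3 and factor B when they meet microbial products.

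These 8 genes (C3, C1qa, C1qb, C1qc, Cfb, Cfp, C3ar1 and C5ar1) were taken by their symbols from a table of read counts for 54532 genes. The counts came from poly(A) RNA of bone marrow-derived macrophages (BMDMs), grown from bone marrow of female C57BL/6 mice aged 13 to 17 weeks during 7 days with MCSF, the growth factor that turns marrow cells into macrophages. KO macrophages carried LysM-Cre;Bmal1 flox/flox and WT macrophages Bmal1 flox/flox without Cre, so both genotypes shared the floxed Bmal1 alleles. In both genotypes, cells received vehicle (DMSO), 100 µM CCM (a small molecule that binds the clock factor BMAL1), 100 nM lipopolysaccharide (LPS, from the wall of Gram-negative bacteria, with DMSO) or both LPS and CCM. Exposure lasted 6 h. The design had groups of 3 WT and 6 KO libraries and 36 libraries in all. Cre is driven by LysM, the Lyz2 locus, which is active in macrophages, neutrophils and other myeloid cells, so the deletion was neither macrophage-specific nor necessarily complete. Levels are in CPM, which stands for a gene's counts per 1000000 counts of the library after TMM scaling. Differences were tested with edgeR's quasi-likelihood test and are given as log2 fold changes with a standard error (SE), and a gene is termed called where its p, adjusted by Benjamini-Hochberg over all genes tested, does not exceed 0.05. In these bulk RNA samples, a smaller share of the cells that express a gene cannot be told apart from less RNA per cell.

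The libraries held 13469262 to 28288923 counts. Bmal1 itself (Arntl in the table), whose whole-gene count includes exons that a deletion leaves in place, averaged 9.20 to 10.7 CPM in the WT replicates and 3.38 to 9.23 CPM in the KO replicates. The libraries labelled KO replicate 2 stood at the WT level for Arntl (9.23 CPM) and for Lyz2 (13335 CPM, against 12122 to 12565 in WT and 6879 to 8651 in the other KO replicates), and are named by their label throughout. The 4 libraries of KO replicate 6 stood apart in the complement genes, as described below. The KO LPS+CCM library of replicate 5 did so too. In that group the library labelled replicate 2 lay between replicate 5 and replicates 1, 3 and 4 for the C1q genes, C3 and Cfb. Its C1qa level was 365 CPM, against 476 in replicate 5 and 259 to 276 in replicates 1, 3 and 4. Macrophage markers were high in all libraries (6 of 6 at 1 CPM or more, summing to 3295 to 8494 CPM). The 8 neutrophil markers summed to 322 to 556 CPM in WT libraries, 327 to 903 in KO replicates 1 to 5 and 952 to 980 in KO replicate 6. The 5 fibroblast markers summed to 302 to 1660 CPM, and those of dendritic, B, T and erythroid cells to at most 10.4 CPM each. Where leaving out KO replicates 2 or 6 changed a call or moved a called value by over 1.5 times, the value without them is given too.

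The 3 C1q genes lie side by side within 18675 bases of chromosome 4, all on the minus strand (build GRCm38). C1qb (ENSMUSG00000036905) runs from 136880129 to 136886187, C1qc (ENSMUSG00000036896) from 136889804 to 136893065 and C1qa (ENSMUSG00000036887) from 136895917 to 136898803. C3 (ENSMUSG00000024164) lies on chromosome 17 from 57203970 to 57228136, and Cfb (ENSMUSG00000090231) on the same chromosome from 34856374 to 34862518, ending 85 bases from its paralog C2. Cfp (ENSMUSG00000001128) is on chromosome X from 20925454 to 20931555, and C3ar1 (ENSMUSG00000040552) on chromosome 6 from 122847138 to 122856161. C5ar1 (ENSMUSG00000049130) is on chromosome 7 from 16246743 to 16259540, 2588 bases from C5ar2. The genes annotated inside C3 (Mir6978) and across Cfb (Gm20547 and Mir6972) had 0 counts in all libraries.

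RefSeq promoter windows (GRCm38.p6, 250 bases before to 50 after the start) were matched for 6 of the 8 genes, all but C1qa and Cfb. The 250 bases before the start are shown for C3, the member with the larger LPS response among those matched, and for C1qb, the C1q chain at the highest level. The window of C1qc overlaps the first exon that GENCODE gives it. That of C5ar1 (16259339 to 16259588) also overlaps its GENCODE gene, which ends at 16259540. Both are described only by their matches. The C3ar1 window meets its gene at the edge only. Capitals mark matches to the motifs searched on both strands, and no match overlapped another.
C3, chr17:57228137-57228386, minus strand: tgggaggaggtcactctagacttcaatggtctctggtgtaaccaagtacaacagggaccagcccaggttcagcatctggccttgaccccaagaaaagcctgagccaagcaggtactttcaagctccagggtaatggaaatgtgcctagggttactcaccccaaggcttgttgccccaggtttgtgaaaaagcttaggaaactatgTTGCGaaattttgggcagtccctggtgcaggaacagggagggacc
C1qb, chr4:136886201-136886450, minus strand: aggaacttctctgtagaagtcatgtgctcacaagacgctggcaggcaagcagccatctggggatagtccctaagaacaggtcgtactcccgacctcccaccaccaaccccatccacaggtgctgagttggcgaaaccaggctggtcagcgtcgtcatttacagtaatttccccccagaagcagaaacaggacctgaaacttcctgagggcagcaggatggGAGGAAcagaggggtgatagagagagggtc
The C3 window held TTGCG, the core of the site bound by C/EBP factors, at -45 to -41 from the start, a match present in 17.4% of the 32851 windows of this length. C1qb held the PU.1 core GAGGAA at -30 to -25, and C1qc held it on the other strand, as TTCCTC, at -193 to -188, where 28.3% of all windows have a match. C1qc also held the kappaB consensus at -41 to -32 (8.46% of windows). Cfp held the PU.1 core at 7 to 12 and at 23 to 28 after the start. C5ar1 held GAAANNGAA, the core of an interferon response element, at -66 to -58 (8.56% of windows), inside the gene as GENCODE gives it. The C3ar1 window matched none of the motifs. The E-box CACGTG, the site that BMAL1 with CLOCK binds, is present in 7.15% of windows and was in none of the 6.

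In unstimulated WT macrophages, C1q and the receptors were at high levels, C3 at a low level and Cfb close to 0. Divided by gene length, the level of C1qb was 1187 ± 134 CPM per kilobase (SD, n = 3). C1qc followed with 486 ± 61.4 and C1qa with 414 ± 33.9 CPM per kilobase, and the libraries of these 2 chains overlapped. The next were C5ar1 with 207 ± 5.29 and C3ar1 with 189.5 ± 15.0 CPM per kilobase, which also overlapped. Cfp had 82.6 ± 5.81, C3 had 8.20 ± 1.49 and Cfb had 0.0117 ± 0.0109 CPM per kilobase, each below every library of the gene before it. With LPS, C3 moved up to 152 ± 6.47 CPM per kilobase, into the range of C3ar1 (138 ± 9.97) and above every library of Cfp (86.5 ± 8.54). The order of the 3 C1q chains was the same with LPS, and C1qa libraries then lay below every C1qc library.

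**Figure D1:**
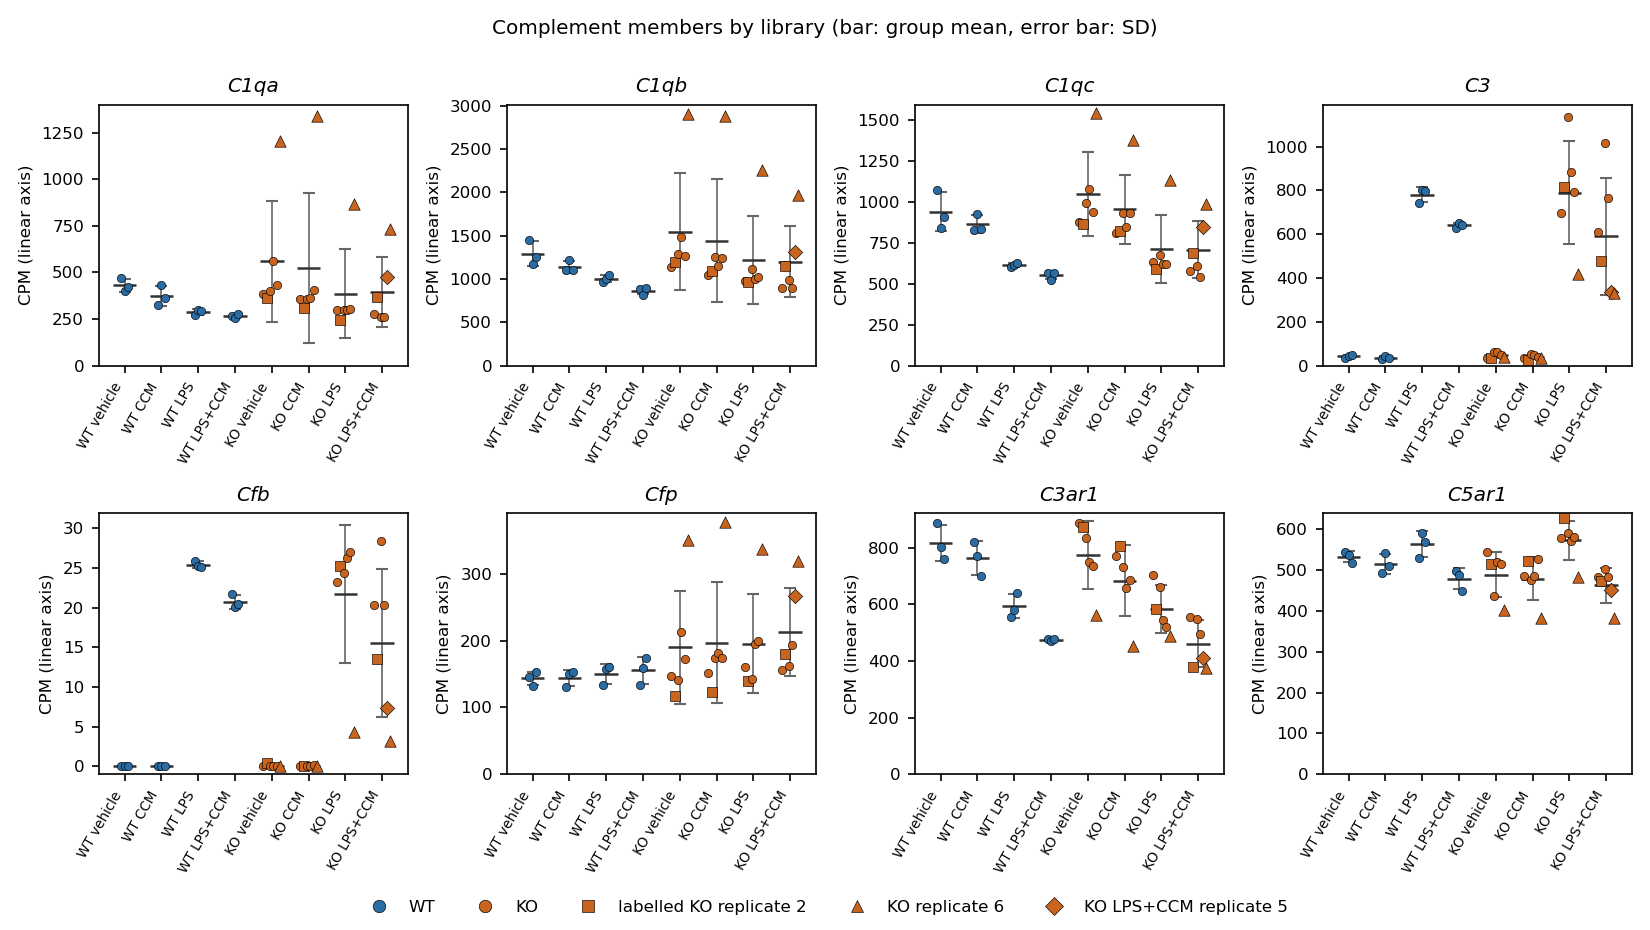
CPM of each complement gene (y axis, linear) in each of the 36 libraries, by genotype and treatment (x axis), with bars for the group mean and error bars for the SD. C3 and Cfb are near 0 in vehicle and CCM libraries and rise with LPS, the C1q genes are lower with LPS, and KO replicate 6 (triangles) lies above the other KO libraries for the C1q genes and Cfp.

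LPS raised the central component and the alternative pathway protease in WT macrophages, lowered all 3 C1q chains and C3ar1, and left Cfp and C5ar1 uncalled. Of the 8 genes, 2 were called higher and 4 lower. In the same comparison 63% of the 14501 genes tested were called, 30.6% higher and 32.4% lower, so that 6 of 8 lies near the background of this strong stimulus. The median log2 fold change was -0.12 over the 8 genes and -0.053 over all genes tested.

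C3 had 34.2, 42.8 and 49.5 CPM in the 3 WT vehicle libraries and 742, 801 and 799 CPM in the LPS libraries. Every LPS library was far above every vehicle library, and the log2 fold change was 4.23 (SE 0.131, edgeR adjusted p = 1.64e-09), a ratio of the group means of 18.5. In KO macrophages, C3 ranged from 34.3 to 64.4 CPM with vehicle (median 44.5) and from 417 to 1136 CPM with LPS (median 804). The 2 groups did not overlap, and KO replicate 6 had the lowest LPS value. The log2 fold change was 4.06 (SE 0.242, edgeR adjusted p = 1.59e-08), and each of the 6 same-numbered pairs went up, as follows from the lack of overlap.

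Cfb encodes the protease that, bound to C3b, forms the alternative pathway convertase. It had 1, 0 and 2 counts in the WT vehicle libraries and 439, 581 and 623 counts with LPS. Over the depth of these libraries the ratio was 690.2, with a 95% counting interval of 236 to 3350.5 that comes from the 3 vehicle counts and covers counting error only. The 6 KO vehicle libraries held 0, 9, 0, 3, 1 and 0 counts, the 9 in the library labelled KO replicate 2, and the ratio in KO was 232 (95% counting interval 135 to 436). Without replicate 2, a choice made after the counts were seen, 4 vehicle counts remained and the ratio was 611 (95% counting interval 238 to 2246). With LPS, Cfb reached 25.9, 25.2 and 25.1 CPM in WT libraries and 4.29 to 27.0 CPM in KO libraries (median 24.8). KO replicate 6 had the lowest value, and the other 5 KO libraries lay between 23.2 and 27.0 CPM. Cfb was called in both genotypes, with edgeR adjusted p = 5.34e-10 in WT and 6.98e-07 in KO.

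The 3 C1q chains fell together with LPS in WT macrophages. C1qa had 469, 399 and 424 CPM with vehicle and 272, 299 and 296 CPM with LPS, a log2 fold change of -0.55 (SE 0.0662, edgeR adjusted p = 4.87e-05). C1qb had 1452, 1168 and 1253 CPM with vehicle and 961, 1001 and 1042 CPM with LPS, a log2 fold change of -0.34 (SE 0.0755, edgeR adjusted p = 0.00299). C1qc had 1070.1, 839 and 908 CPM with vehicle and 598, 615 and 626 CPM with LPS, a log2 fold change of -0.58 (SE 0.0781, edgeR adjusted p = 9.75e-05). For each chain no LPS library reached the lowest vehicle library. These calls held without any 1 of the 6 libraries. They were lost when the spread was estimated from all 36 libraries together, with edgeR adjusted p = 0.459, 0.538 and 0.0643 for C1qa, C1qb and C1qc, in a fit that called 35.9% of all genes.

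In KO macrophages the C1q estimates were alike in size but not called in the fit without pairing. C1qa ranged from 363 to 1205 CPM with vehicle (median 417) and from 246 to 869 CPM with LPS (median 298). C1qb ranged from 1136 to 2901 (median 1275) and from 962 to 2253 CPM (median 1009). C1qc ranged from 866 to 1539 (median 962) and from 587 to 1128 CPM (median 626). The highest value of each of these groups was KO replicate 6, and through it the vehicle and LPS libraries overlapped. The log2 fold changes were -0.52 (95% interval -1.39 to 0.36) for C1qa, -0.33 (-0.998 to 0.34) for C1qb and -0.55 (-1.02 to -0.076) for C1qc, with edgeR adjusted p = 0.331, 0.424 and 0.0548. The KO vehicle and LPS libraries met the limit set for pairing by replicate number, with correlations of their deviations of 0.298 to 0.830. Differently numbered libraries correlated as well (median 0.172), so the limit does not by itself show pairing. When the number was added to the fit as a block, the 3 chains were called lower, with edgeR adjusted p = 2.5e-06, 4.86e-05 and 2.95e-07. Each was lower with LPS in 6 of 6 pairs. Without KO replicate 6, and also without replicates 2 and 6 together, the 3 chains were called lower in the fit with no block. Without replicate 6 the log2 fold changes of C1qa, C1qb and C1qc were -0.57, -0.33 and -0.60 (edgeR adjusted p = 0.000225, 0.000846 and 2.08e-06). Without both replicates they were -0.54, -0.30 and -0.57 (edgeR adjusted p = 0.000611, 0.00862 and 3.2e-05). These fits called more of all genes too: 71.6% with the block, 69.4% without replicate 6 and 64.8% without both, against 47.1% in the fit of all KO libraries with no block.

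C3ar1, the receptor for C3a, fell with LPS in both genotypes. It had 886, 804 and 758 CPM in WT vehicle libraries and 556, 581 and 640.0 CPM in WT LPS libraries, a log2 fold change of -0.43 (SE 0.0723, edgeR adjusted p = 0.000469). In KO macrophages it ranged from 562 to 887 CPM with vehicle (median 792) and from 489 to 704 CPM with LPS (median 565), so that the groups overlapped in KO but not in WT. The KO log2 fold change was -0.40 (SE 0.123, edgeR adjusted p = 0.0154), lower in 6 of 6 pairs. The KO call was lost without replicate 2 (edgeR adjusted p = 0.071) and without replicate 5 (0.0544), and held with the block (2.76e-05).

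C5ar1, the receptor for C5a, and Cfp, which stabilizes the convertase, differed less with LPS. C5ar1 had 543, 537 and 517 CPM with vehicle and 530.2, 592 and 568 CPM with LPS in WT libraries, which overlapped (log2 fold change 0.11, 95% interval -0.021 to 0.24, edgeR adjusted p = 0.129). In KO libraries it ranged from 403 to 543 CPM with vehicle (median 515) and from 482 to 627 CPM with LPS (median 580.5). The KO log2 fold change was 0.23 (SE 0.0887, edgeR adjusted p = 0.0482), higher in 6 of 6 pairs, and the call was lost without any 1 of replicates 1 to 5 (edgeR adjusted p 0.0685 to 0.182) but held with the block (0.00117). Cfp had 145, 133 and 152 CPM with vehicle and 133, 157 and 160.0 CPM with LPS in WT libraries, a log2 fold change of 0.096 (95% interval -0.087 to 0.28, edgeR adjusted p = 0.33). In KO libraries it ranged from 117 to 350.3 CPM with vehicle (median 159) and from 139.9 to 337 CPM with LPS (median 178), and it was not called (0.054, 95% interval -0.61 to 0.72). The direction of C5ar1 and Cfp with LPS depended on the scaling. With total counts in place of TMM, their log2 fold changes were -0.30 and -0.32 in WT and -0.16 and -0.32 in KO. Both were then called lower in WT (edgeR adjusted p = 0.00107 and 0.00495), in a fit that called 10611 of 14501 genes, and neither in KO. Total counts moved the median of all genes to -0.47 in WT and -0.44 in KO. Relative to those medians both genes still stood higher. Over all genes the same setting turned 4441 higher and 4698 lower calls into 2551 and 8060 in WT, and 3060 and 3373 into 1825 and 5708 in KO. The neutrophil marker sum moved with LPS as well, from 506 to 556 CPM in WT vehicle libraries to 392 to 433 CPM in WT LPS libraries, and its part in the values of these genes was not tested.

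In KO macrophages as a whole, LPS called 3 of the 8 genes higher (C3, Cfb and C5ar1) and 1 lower (C3ar1), where 47.1% of the 13648 genes tested were called, 22.4% higher and 24.7% lower. With the replicate number as a block 7 of the 8 were called, all but Cfp, in a fit that called 71.6% of all genes. The difference in the LPS response between genotypes was tested as an interaction, which called 0 of the 8 genes and 0% of 15093 genes (112 at an unadjusted p under 0.05, none of them a member). It also called 0 genes without KO replicates 2 and 6. The estimates for the members other than Cfb ran from -0.16 to 0.14 on the log2 scale. For Cfb the estimate was -1.51 with a 95% interval of -4.44 to 1.42, and its vehicle libraries held 0 to 9 counts each. For C1qa the 95% interval was -1.21 to 1.31 in this fit, which did not use the replicate numbers of the KO libraries. On its own, the fit could not tell a genotype difference of over 1 on the log2 scale from none. With the block, the KO log2 fold change of C1qa was -0.54 (SE 0.0599), against -0.55 (SE 0.0662) in the WT fit with no block. The 6 KO pairs ran from -0.91 to -0.38.

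**Figure D2:**
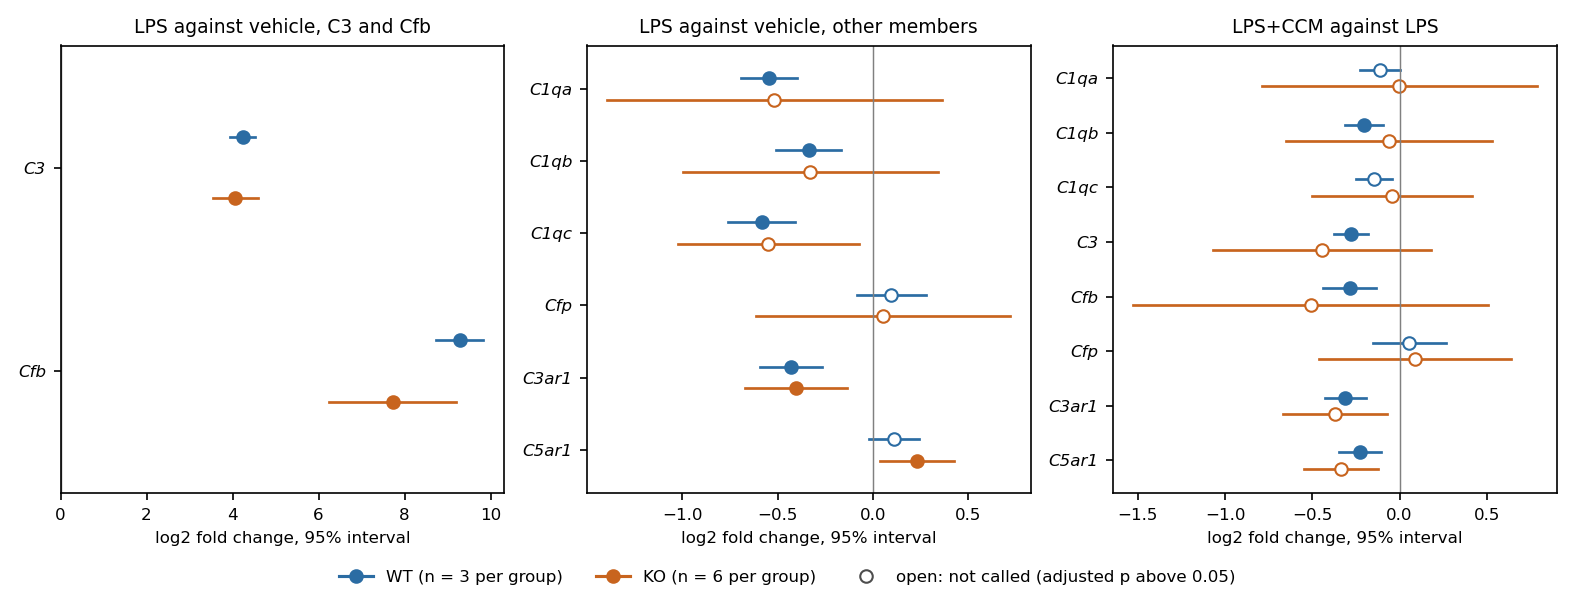
Log2 fold changes (x axis) with 95% intervals from edgeR for LPS against vehicle (left and middle) and LPS+CCM against LPS (right), for WT (blue) and KO (orange). Filled circles were called. The KO estimates for the C1q chains lie close to those of WT with intervals several times as wide.

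CCM alone gave no call among the complement genes. Without LPS, 0 of 7 members were called in WT macrophages, where 0.057% of the 14024 genes tested were called, and Cfb was too low to be tested. The estimates ran from -0.20 (C1qa, 95% interval -0.42 to 0.024) to 0.023 (Cfp). C1qb, with 1100.1, 1217 and 1102 CPM in the CCM libraries, was the only member with an unadjusted p under 0.05 (log2 fold change -0.17, edgeR adjusted p = 0.496). The others were -0.19 for C3, -0.11 for C1qc, -0.085 for C3ar1 and -0.039 for C5ar1. DESeq2 also called 0. In unstimulated KO macrophages 0 of 7 were called, as were 0% of 13799 genes (333 at an unadjusted p under 0.05), with no member at an unadjusted p under 0.05 and 0 called by DESeq2. C3 ranged from 27.8 to 53.3 CPM with CCM (median 37.7), within the range of the vehicle libraries at its upper end, and C3ar1 ranged from 451 to 805 CPM (median 707). Both were lower in 6 of 6 same-numbered pairs, as were C1qb and C1qc. The KO libraries met the pairing limit here too, but the median correlation of differently numbered libraries was 0.221. With the block C3 (log2 fold change -0.26, edgeR adjusted p = 0.0346) and C3ar1 (-0.19, 0.0219) were called lower, in a fit that called 3.11% of all genes. In the fit without the block the log2 fold changes were -0.26 for C3 and -0.19 for C3ar1. Those of the other members tested were -0.079 for C1qa, -0.091 for C1qb, -0.14 for C1qc, 0.061 for Cfp and -0.035 for C5ar1.

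Under LPS, CCM lowered 5 of the 8 genes in WT macrophages and raised none. Called lower were C3, Cfb, C1qb, C3ar1 and C5ar1, where 11.9% of the 13579 genes tested were called, 4.15% higher and 7.78% lower. The median log2 fold change was -0.22 over the 8 genes and 0.014 over all genes tested. C3 was among the phagocytosis genes that the study chose to show for CCM on these same samples, so its direction here is not independent evidence.

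C3 and Cfb fell by similar amounts. C3 had 629, 650.1 and 643 CPM with LPS and CCM, below the 742 to 801 CPM of the LPS libraries, a log2 fold change of -0.28 (SE 0.0433, edgeR adjusted p = 0.00229). This level was still 15.2 times the vehicle mean. Cfb had 21.7, 20.1 and 20.4 CPM, below the 25.1 to 25.9 CPM of the LPS libraries, a log2 fold change of -0.29 (SE 0.0673, edgeR adjusted p = 0.0205).

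Both receptors were also lower. C3ar1 had 477, 470.2 and 478 CPM, where no LPS library was below 556 CPM, a log2 fold change of -0.31 (SE 0.0533, edgeR adjusted p = 0.0041). C5ar1 had 497, 489 and 449 CPM, against 530.2 to 592 CPM in the LPS libraries, a log2 fold change of -0.23 (SE 0.0549, edgeR adjusted p = 0.023). The C5ar1 libraries with LPS and CCM also lay below every vehicle library (517 to 543 CPM), whereas C3 and Cfb stayed far above theirs.

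Of the C1q chains, C1qb had 884, 816 and 893 CPM with LPS and CCM, a log2 fold change of -0.20 (SE 0.05, edgeR adjusted p = 0.0249). C1qc had 567, 523 and 566 CPM and C1qa had 266, 254 and 277 CPM, with log2 fold changes of -0.14 (edgeR adjusted p = 0.0747) and -0.11 (0.198) that were not called. All 3 chains were lower in 3 of 3 same-numbered pairs. The numbers paired the WT libraries under LPS, and with the block C1qc and C1qa were called as well, with edgeR adjusted p = 0.00427 and 0.0476, which made 7 of 8 in a fit that called 23.7% of all genes. Cfp had 133, 159 and 174 CPM and a log2 fold change of 0.056 (95% interval -0.15 to 0.27). The neutrophil marker sum was 331 to 398 CPM in the WT LPS+CCM libraries, overlapping the 392 to 433 CPM with LPS, and of the 6 neutrophil markers tested S100a9 was called lower (log2 fold change -0.28, edgeR adjusted p = 0.0292). The dendritic cell marker sum was 2.57 to 3.28 CPM with LPS and CCM, below the 5.15 to 5.39 CPM with LPS, with 0 of 3 markers tested called. Of the 6 macrophage markers, Csf1r (0.27) was called higher, and Fcgr1 (-0.31) and Mertk (-0.21) lower. The part of these markers' cells in the complement values was not tested.

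These WT calls differed in how firmly they stood. Those of C3 and C3ar1 held without any 1 of the 6 libraries, with edgeR adjusted p of at most 0.0181 and 0.0268. Those of C1qb, Cfb and C5ar1 were lost when replicate 2 of either the WT LPS or the WT LPS+CCM group was left out, which left 2 genes called, and some also without another library. With total counts 2 members (C3 and C3ar1) were called, in a fit that called 16.7% of all genes, and the split of all genes called moved from 564 higher and 1057 lower to 1539 and 733. No member was called when all 36 libraries were fitted together, where 0.108% of all genes were called (edgeR adjusted p = 0.964 for C5ar1 and 1 for the others), although the estimates stayed at -0.28 for C3 and -0.31 for C3ar1.

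**Figure D3:**
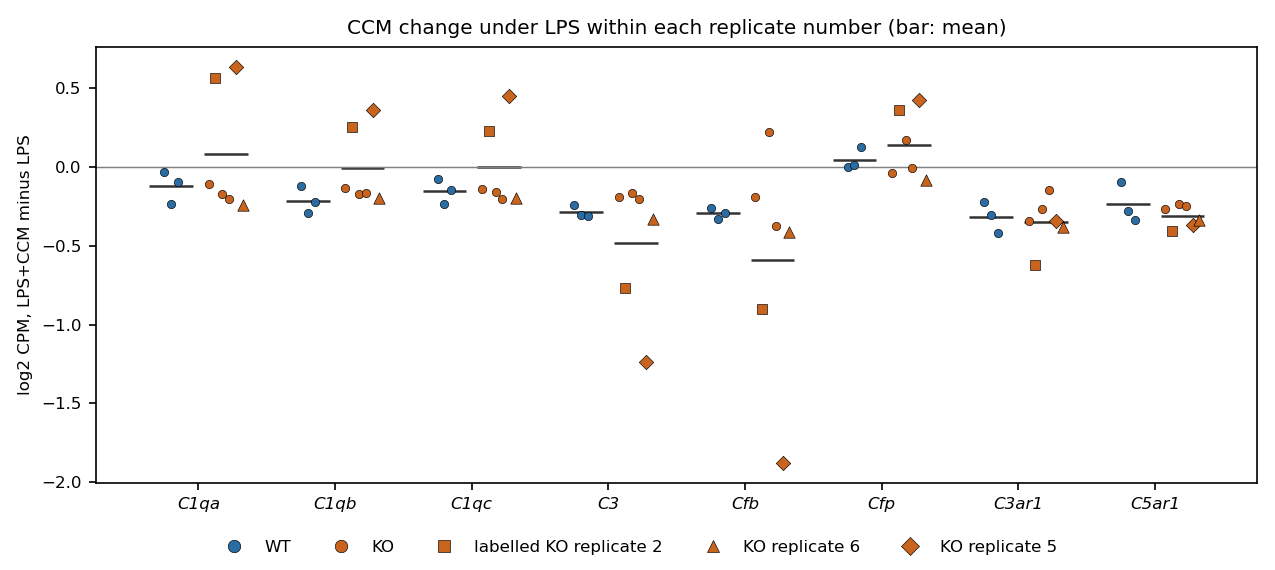
Change in log2 CPM from LPS to LPS+CCM (y axis) for each replicate number, in WT (blue, n = 3) and KO (orange, n = 6), with bars for the mean. C3ar1 and C5ar1 are below 0 in all 9 replicates, and KO replicates 2 and 5 go up for the C1q chains and furthest down for C3.

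In LPS-treated KO macrophages CCM gave no call among the 8 genes, where 0.112% of 13386 genes were called. C5ar1 and C3ar1 had an unadjusted p under 0.05. DESeq2 called C5ar1 and 0.667% of the 26968 genes it fitted, which were all genes with a count and so a larger set than the 13386. C5ar1 was also called when all 36 libraries were fitted together (1.81% of all genes called), and C5ar1 and C3ar1 with the replicate block (5.8%). C5ar1 ranged from 383 to 503 CPM with LPS and CCM (median 478), and it was lower than with LPS in 6 of 6 same-numbered pairs (log2 fold change -0.34, 95% interval -0.55 to -0.13, edgeR adjusted p = 0.267). C3ar1 ranged from 375 to 556 CPM (median 452) and was also lower in 6 of 6 pairs (log2 fold change -0.37, 95% interval -0.67 to -0.071, edgeR adjusted p = 0.466). These 2 estimates were no smaller in size than in WT. The replicate numbers did not pair these libraries.

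C3 and the C1q chains were less even across the KO libraries. C3 ranged from 332 to 1016 CPM with LPS and CCM (median 544) and was lower in 6 of 6 pairs, by 0.16 to 1.24 on the log2 scale, with the widest drop in replicate 5. Cfb ranged from 3.20 to 28.4 CPM (median 16.9) and was lower in 5 of 6 pairs (log2 fold change -0.51, 95% interval -1.53 to 0.51). Cfp ranged from 157 to 319 CPM and was lower in 3 of 6 pairs (log2 fold change 0.088). C1qa had 246 and 306 CPM with LPS in the libraries labelled KO replicates 2 and 5, and 365 and 476 CPM with LPS and CCM. It was lower with CCM in the other 4 replicates. C1qb and C1qc split in the same way, and the fitted log2 fold changes of the 3 chains were between -0.059 and -0.0017. Without KO replicates 2 and 6 and the LPS+CCM library of replicate 5, an alternative chosen after the counts were seen, the estimates were -0.18 for C1qa, -0.16 for C1qb, -0.16 for C1qc and -0.15 for C3, and of the 8 genes C5ar1 alone was called, where 1.45% of all genes were (edgeR adjusted p = 0.0412). Tested as an interaction, the difference between genotypes in the CCM effect under LPS called 0% of 14546 genes and 0 of the 8 members (72 genes at an unadjusted p under 0.05; it also called 0 genes without KO replicates 2 and 6), with estimates for the members between -0.21 and 0.16. Its 95% interval for C3 was -1.05 to 0.74, so equal and clearly unequal CCM effects in the 2 genotypes are both within it.

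Whether CCM acted more strongly with LPS than without was tested as an interaction within each genotype. In WT macrophages it called 0 of the 8 genes, where 2.09% of 14747 genes were called. C5ar1 (interaction -0.20 on the log2 scale, SE 0.0799, edgeR adjusted p = 0.255) and C3ar1 (-0.24, SE 0.0978, 0.272) had unadjusted p values under 0.05. For C3 the interaction was -0.10 (95% interval -0.47 to 0.26), so its lower level with CCM under LPS was not shown to differ from that of -0.19 without LPS. In KO macrophages the interaction called 0 of 8, where 0.00685% of 14588 genes were called, and C5ar1 had an estimate of -0.28 (edgeR adjusted p = 1).

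Between genotypes, no complement gene was called. With vehicle, 0 of the 7 genes tested and 0% of 14385 genes were called (118 at an unadjusted p under 0.05, no member among them). The largest estimates were higher in KO, 0.47 for Cfp (95% interval -0.29 to 1.22) and 0.44 for C1qa (-0.46 to 1.35), and they rested on KO replicate 6. Without that library they were 0.16 and 0.019. The others were 0.32 for C1qb, 0.21 for C1qc, 0.21 for C3, -0.034 for C3ar1 and -0.080 for C5ar1. With single libraries left out, C1qb ranged from 0.0042 to 0.42 and C1qc from 0.038 to 0.32. Under LPS 0 of 8 and 0% of 13794 genes were called (105 at an unadjusted p under 0.05, no member), and the estimate for C1qa was 0.46, or 0.011 without replicate 6. Cfp had 0.42, C1qb 0.32, C1qc 0.24 and Cfb -0.21, and C3, C3ar1 and C5ar1 had 0.036, -0.00096 and 0.045. Under LPS, leaving out single libraries gave 0.17 to 0.50 for Cfp, 0.029 to 0.39 for C1qb and 0.042 to 0.30 for C1qc. For Cfb it gave -0.28 to 0.0012, the last without KO replicate 6. DESeq2 called 0 members in both genotype comparisons.

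KO replicate 6 differed from the other KO replicates in the same way under all 4 treatments. C1qa had 1205, 1339, 869 and 735 CPM in its vehicle, CCM, LPS and LPS+CCM libraries, 2.24 to 3.73 times the mean of KO replicates 1 to 5. C1qb stood at 1.88 to 2.49 times, Cfp at 1.66 to 2.34 times and C1qc at 1.51 to 1.80 times that mean. The receptors were lower, C3ar1 at 0.619 to 0.811 times and C5ar1 at 0.768 to 0.817 times the mean. For these 6 genes the replicate 6 library lay outside the range of KO replicates 1 to 5 in each treatment. C3 and Cfb were within that range without LPS, and with LPS they stood at 0.482 and 0.170 times the mean. The KO LPS+CCM library of replicate 5 lay between replicate 6 and the rest for C1qa (476 CPM), C1qb (1314 CPM) and Cfp (268 CPM). The neutrophil marker sum of replicate 6 was also the highest in each treatment (952 to 980 CPM). S100a9 (445 to 479 CPM) and S100a8 (304 to 405 CPM) made up most of it. Of the 8 markers, only S100a9 lay above the range of all other libraries, and Ly6g reached at most 0.562 CPM. Adgre1 was at 259 to 934 CPM, against 678 to 2511 in all other libraries, and Cd68 at 1013 to 1427 CPM, against 587 to 1248. Arntl was at 0.267 to 0.596 times the mean of KO replicates 1 to 5. The part of other cells or of Bmal1 in these levels was not tested.

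**Figure D4:**
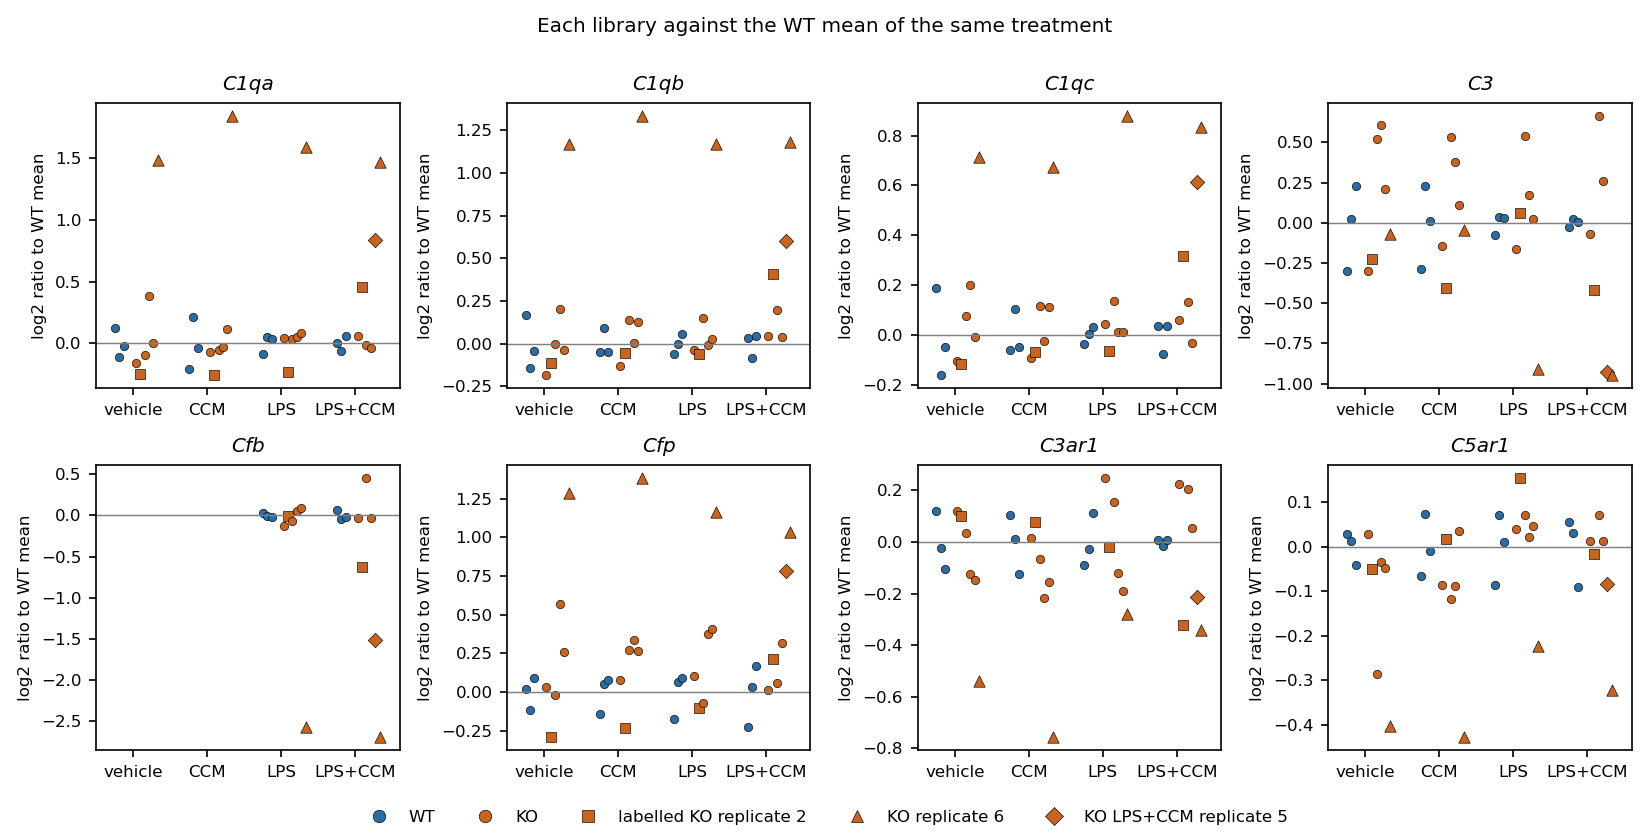
Log2 ratio of each library to the WT mean of the same treatment (y axis), by treatment (x axis) and gene, for WT (blue) and KO (orange) libraries. Cfb is shown only with LPS, since its WT mean without LPS rests on 3 counts or fewer. KO replicate 6 (triangles) lies above the other libraries for the C1q genes and Cfp and lowest for C5ar1. With LPS+CCM, KO replicates 2 and 5 also lie above the 3 WT libraries for the C1q genes and below them for C3 and Cfb.

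Of 44 further complement genes, 24 passed the count filter in WT macrophages, and the rest were at or near 0, among them C4bp, C7, C8b, Mbl1 and Cd55b with 0 counts in all libraries. With LPS 7 were called higher and 8 lower of the 24 in WT, where 63% of all genes were called, and 7 higher and 7 lower of 23 in KO, where 47.1% were. Of the 6 genes tested for the proteases of C1 and for C4 and C2, 4 rose and none fell. C1ra, a protease of the C1 complex, had a log2 fold change of 2.42 (SE 0.154, edgeR adjusted p = 3.76e-07), and C1rl, C2 and C1s1 had 1.49, 1.57 and 1.46. All 4 were also called higher in KO. C1ra has a near-identical copy, C1rb, so its reads may be split. C4a and C4b, also near-identical copies whose reads may be split between them, were not called. C1s1 and C2 were at low levels (means of 1.24 and 1.29 CPM over all libraries). Fibroblasts also express C1 proteases, and the fibroblast marker sum overlapped between WT vehicle (492 to 1382 CPM) and WT LPS libraries (514 to 734 CPM). Its part in these values was not tested.

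Other receptors and regulators changed in both directions. Cd93, a receptor once linked to C1q, fell by 2.52 on the log2 scale (SE 0.0876, edgeR adjusted p = 3.75e-09), and C5ar2, the second C5a receptor and neighbor of C5ar1, fell by 2.10 (SE 0.192, 5.93e-06). Itgax, a chain of complement receptor 4, rose by 0.80. C1qbp, which binds the heads of C1q, fell by 0.47. Among the regulators, Cd59a, which blocks the membrane attack complex, fell by 1.03, whereas Cd55 and Cr1l, which break up convertases, rose by 1.80 and 0.36. The 0.36 of Cr1l is smaller than the shift of the median of all genes between TMM and total counts. Of the 4 genes tested from the list headed lectin pathway, Masp1, Colec12 and Fcnb fell by 1.45, 1.40 and 0.70. In this WT comparison 32.4% of all genes were called lower. Their means over all libraries were 1.44, 36.9 and 3.01 CPM. The grouping is by list only, and no pathway activity was measured. Cd93, C5ar2, Itgax, Cd59a, Cd55, Cr1l, Masp1 and Colec12 were called in the same direction in KO, and C1qbp and Fcnb were not called there. The only terminal component tested, C8g, was not called.

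**Figure D5:**
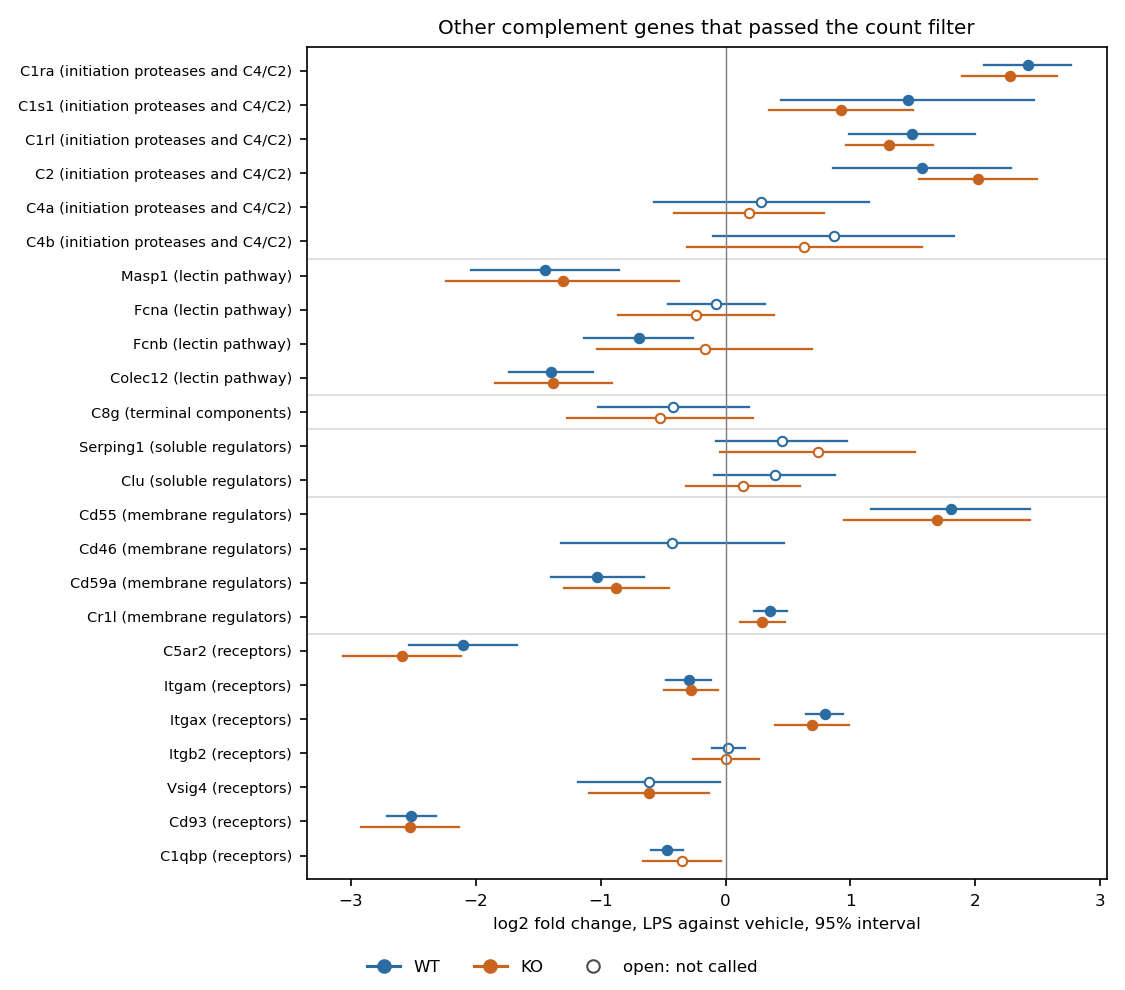
Log2 fold change of LPS against vehicle (x axis) with 95% intervals for the other complement genes that passed the count filter, by role, in WT (blue) and KO (orange). Filled circles were called. Cd46 was not tested in KO. The classical pathway proteases lie above 0, and Cd93 and C5ar2 lie lowest.

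With CCM under LPS, 1 of the 24 further genes was called in WT macrophages, where 11.9% of all genes were called, 7.78% lower. Clu, an extracellular chaperone that holds back the terminal complex, fell by 0.78 (SE 0.176, edgeR adjusted p = 0.0172). None was called with CCM in unstimulated WT macrophages, in either KO comparison with CCM or between genotypes, where at most 0.112% of all genes were called.

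Likeness of profiles over the 36 libraries is described by Pearson's r of log2 CPM. The LPS split shapes these values, and the libraries share replicate numbers and treatments. All 36 libraries include KO replicate 6, which stood apart, and the most similar genes were not sought without it. For C1qa the most similar of 10456 genes were C1qb, Lgals1 and Pih1d1 (r = 0.98, 0.97 and 0.97). For C1qb they were C1qa, Sil1 and Mpdu1 (0.98, 0.97 and 0.97), and for C1qc they were Trem2, Ptpn18 and Fcgrt (0.97, 0.96 and 0.96). The r of C1qa with C1qb was 0.93 over the 32 libraries without KO replicate 6, and that of C1qa with C1qc was 0.89 over all 36 and 0.91 without them. C3 was nearest to Dusp16, Slco3a1 and Atp10a (0.99 each) and Cfb to Trim30c, Il12b and Slco3a1 (0.99 each), and C3 and Cfb had r = 0.98 with each other. Cfp was nearest to Pf4, Mydgf and Sssca1 (0.94, 0.92 and 0.92). C3ar1 was nearest to Gpnmb, Dock2 and Elmo1 (0.92, 0.91 and 0.91), and C5ar1 to Ehd4, Tbc1d1 and Stap1 (0.88, 0.85 and 0.83). The r of C1qa with Cfp was 0.79 over all 36 libraries and 0.26 without KO replicate 6. The r of C3ar1 with C5ar1 was 0.41 over all 36 libraries and 0.18 without KO replicate 6.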

How the data were processed

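The authors deposited a table of raw read counts per gene. Per the submitters' processing notes and the study's methods, reads were trimmed with fastp (version not given), aligned to mm10 with HISAT2 2.0.5 and counted with featureCounts 1.5.0-p3. The strand setting is not given in the sources used here, so reads of overlapping antisense genes cannot be told apart. All 36 columns were mapped to libraries by name, and no others held values. Replicate numbers come from the labels. The study gives 3 WT and 6 KO mice, but the labels do not tie libraries to animals, and p-values measure the spread between these libraries. No pair of replicates agreed within sampling noise.

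The groups of each comparison were fitted separately from the others with edgeR 4.0.16 in R 4.3.3 (filterByExpr, TMM scaling, estimateDisp, glmQLFit, glmQLFTest), and p-values were adjusted by Benjamini-Hochberg over all genes tested. CPM and log2 CPM (prior count 2) used TMM factors over all 36 libraries. Intervals are 95% intervals of the fit, and counting intervals cover counting error only. The procedure was tested on simulated data. Gene positions were taken from GENCODE release 21 for mouse (GRCm38), whose identifiers match the table, and motif shares from RefSeq promoter windows.

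All members tested are named in each comparison of 2 groups, and the interactions are given by counts, ranges and selected members. Of the other complement genes, those called with LPS in WT or in a CCM comparison are named, at most 4 per role by smallest p, and for likeness the 3 genes with the highest r among those with a mean log2 CPM of at least 1. Items withheld from the lists of other genes and of markers are not reported here. The members and lists were chosen with earlier results of these data known.

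Same-numbered libraries were taken as paired where every pair's deviations from the group means correlated above 0.1. This held for LPS in KO (0.298 to 0.830), CCM under LPS in WT (0.151 to 0.360) and CCM in unstimulated KO (0.337 to 0.844), and the pairing is read from these data. The median correlation of differently numbered libraries was 0.172, -0.132 and 0.221 in these comparisons. In KO it also exceeded 0.1, so there the limit does not by itself show that the numbers pair the libraries. Alternatives were RLE size factors, total counts, a minimum of 1 count in place of the filter, DESeq2 1.42.0, all 36 libraries in 1 fit, a replicate block within genotypes and leaving out each replicate. Leaving out KO replicates 2 and 6, the KO LPS+CCM library of replicate 5, or all of these was added after the data were seen.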

Additional observations from a re-analysis of the deposited data

Results flagged for a closer look

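In 14 of 32 groups of 6 KO libraries, by gene and treatment, 1 library stood further from the rest than Dixon's limit of 0.625 for the gap over the range. Chance flags about 1 group in 20, and the genes and treatments here share libraries. KO replicate 6 was the library that stood apart in 13 of them.

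The C1q chains were highest in KO replicate 6 with vehicle, CCM and LPS. C1qa had 1205, 1339 and 869 CPM, C1qb had 2901, 2877 and 2253 CPM, and C1qc had 1539, 1372 and 1128 CPM in these libraries. Cfp was highest there with CCM (377 CPM) and LPS (337 CPM). C5ar1 was lowest there with CCM (382 CPM) and Cfb lowest with LPS (4.29 CPM). The remaining group was Cfb with vehicle, where the library labelled KO replicate 2 was highest at 0.401 CPM, from 9 counts.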

How the results depend on the processing

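Over all settings, 148 counts of members called stayed within 1.5 times of the reported one and 17 moved. Of the fold changes of single members, 755 kept their direction and side of the threshold, 25 became called, 30 lost the call and 38 changed sign. Unless the setting itself uses fewer libraries, the cause was not tested.

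With all 36 libraries in 1 fit, LPS in WT called 3 members in place of 6, CCM under LPS in WT 0 in place of 5 and CCM under LPS in KO 1 in place of 0. Total counts left 2 members called for CCM under LPS in WT, and DESeq2 called 1 for CCM under LPS in KO. With the replicate block LPS in KO had 7 called in place of 4, CCM in unstimulated KO 2 and CCM under LPS in KO 2 (C3ar1 and C5ar1). Beside these counts, the fits of all 36 libraries called 35.9%, 0.108% and 1.81% of all genes, total counts 16.7%, and the block 71.6%, 3.11% and 5.8%. DESeq2 called 0.667% of the 26968 genes it fitted. In the last comparison the numbers do not pair the libraries (correlations -0.10 to 0.81, 4 of 6 above 0.1), nor in LPS in WT or CCM in unstimulated WT (2 of 3 each), where the block moved no count by over 1.5 times. Blocked fits changed no other count of calls by over 1.5 times. No block was fitted for KO against WT. Leaving KO replicates 2 and 6 out together gave 7 called for LPS in KO (64.8% of all genes), and leaving them and the KO LPS+CCM library of replicate 5 out gave 1 for CCM under LPS in KO (1.45%). Leaving out single replicates gave 2 to 7 called for LPS in KO (2 without KO replicate 2 or 5, 7 without 6) and 2 to 5 for CCM under LPS in WT.

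Signs changed for Cfp and C5ar1 with LPS under total counts (-0.32 and -0.30 in WT, where both were called lower, and -0.32 and -0.16 in KO, where neither was). The other sign changes concerned estimates near 0 that were not called. For CCM under LPS in KO, C1qa was 0.036 with total counts, 0.0093 with the minimum of 1 count, 0.020 in the fit of all 36 libraries, 0.050 with the block and 0.081 without KO replicates 2 and 6, where C1qc was 0.0027. Leaving out single replicates gave -0.12 to 0.17 for C1qa, -0.13 to 0.037 for C1qb and -0.14 to 0.045 for C1qc. Cfp was -0.041 without KO replicates 2 and 6 and the LPS+CCM library of replicate 5. For CCM in unstimulated cells, leaving out single replicates gave -0.030 to 0.094 for Cfp in WT and -0.27 to 0.0034 for C1qa in KO, and Cfp with CCM under LPS in WT ranged from -0.035 to 0.15. For KO against WT with vehicle, C3ar1 ranged from -0.080 to 0.024 over single replicates left out and was 0.0034 without KO replicates 2 and 6. Under LPS, C3 ranged from -0.096 to 0.16, Cfb from -0.28 to 0.0012 and C3ar1 from -0.056 to 0.057. Without KO replicates 2 and 6, Cfb was 0.0066 and C3ar1 0.050, and C3ar1 was 0.0082 with RLE size factors and 0.0032 with DESeq2. Depth limits Cfb without LPS, where no library held more than 9 counts, so no CCM effect on it could be tested there.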
